A study of Rattus norvegicus with 16 samples.

Results

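Myostatin, the activins, the 3 TGF-beta isoforms and BMP4 are secreted ligands of the TGF-beta superfamily. Each binds a pair of type 1 and type 2 serine/threonine kinase receptors, which pass the signal to Smad proteins that enter the nucleus. Myostatin is made by muscle fibres and restrains their growth, follistatin binds and blocks myostatin and the activins outside the cell, and TGF-beta is known in muscle for its part in scarring. The 10 genes described here were taken by their symbols from the 31141 genes of the expression table: 7 ligand genes (Mstn, Inhba, Inhbb, Tgfb1, Tgfb2, Tgfb3 and Bmp4), the inhibitor Fst, the receptor Acvr2b and the TGF-beta binding protein Ltbp1.

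Messenger RNA of the tibialis anterior, a muscle of the lower leg, was sequenced in 16 libraries from rats of the Wistar-Imamichi strain background. DMD_KD comprised 6 libraries from rats of the Dmd genotype fed MCTKD, DMD_ND 6 libraries from rats of the Dmd genotype on a normal diet, and WT_ND 4 libraries from wild-type rats that ate the normal diet. Dmd encodes dystrophin, whose loss causes Duchenne muscular dystrophy. Both diets ran from weaning to 9 months of age. The labels name neither the allele nor what MCTKD stands for, which in nutrition research is commonly a medium-chain triglyceride ketogenic diet. Whether every library is a separate animal is not stated, so p-values reflect the spread among these samples, part of which may be technical. No wild-type group fed MCTKD was analysed here, so diet was compared in mutants alone.

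Each library had between 17125084 and 28116085 reads assigned to genes. Levels are FPKM as deposited: fragments per kilobase of gene, with libraries scaled by a median-of-ratios size factor and not by each library's total reads. Fold changes are differences of mean log2(FPKM + 1), which understate the change of low genes. Genes were called at a Benjamini-Hochberg adjusted p under 0.05 in limma over 12119 tested genes. Dmd itself lay between 0.546 and 2.04 FPKM in DMD_KD, between 1.37 and 1.98 in DMD_ND and between 4.13 and 11.9 in WT_ND. Markers of muscle fibres led the libraries by level, with 7 of 8 listed genes in the table and summed levels of 33986 to 110784 FPKM in DMD_KD, 26529 to 44601 in DMD_ND and 59426 to 110698 in WT_ND. Of the 7, 6 were lower in DMD_ND than in WT_ND. Macrophage markers summed to 207 to 364 FPKM in DMD_KD, 246 to 349 in DMD_ND and 18.1 to 47.1 in WT_ND, and 9 of 9 were higher in DMD_ND than in WT_ND. Markers of fibro-adipogenic progenitors and fibroblasts summed to 1230 to 1931 FPKM in DMD_KD, 1481 to 2544 in DMD_ND and 126 to 260 in WT_ND, with 7 of 7 tested members higher in DMD_ND than in WT_ND. No marker of these 3 lists stayed at 3 reads or fewer in every library of a group. In the same comparison the counts of tested markers called higher and lower were 5 and 0 of 5 for adipocytes, 3 and 1 of 6 for satellite cells and myoblasts, 4 and 0 of 5 for smooth muscle and pericytes, 0 and 2 of 6 for endothelium, 3 and 0 of 3 for neutrophils, 1 and 0 of 3 for Schwann cells and 1 and 0 of 1 for T cells. Of these, 1 satellite cell marker (Pax7), 1 neutrophil marker (Csf3r) and the T cell marker (Cd8a) reached 1 FPKM in mutant libraries alone. Their p does not take this into account, so the T cell count is no result. With every library rescaled to the same total (TPM), fibre markers had 1 called higher and 3 lower, macrophage markers 9 and 0, fibroblast markers 7 and 0, adipocyte markers 5 and 0, satellite cell and myoblast markers 6 and 0, smooth muscle and pericyte markers 4 and 0, endothelial markers 4 and 0, neutrophil markers 3 and 0, Schwann cell markers 3 and 0 and T cell markers 1 and 0. The share of all tested genes called in this comparison was 65.7% (31.5% higher, 34.3% lower) in FPKM. In TPM 8564 of the 12119 tested genes were called higher and 720 lower. A count near these shares says nothing particular of a marker list. In whole muscle, more cells of a type and more RNA per cell cannot be told apart. DMD_KD replicate 3 stood apart from the other mutant libraries. It held the highest summed fibre markers of them (110784 FPKM, against 33986 as the lowest of its group). A fit with weights per library gave it the lowest weight (0.129). The next lowest weights went to WT_ND replicates 4 (0.238) and 1 (0.283). Their summed fibre markers were 108744 and 110698 FPKM, against 62140 and 59426 in WT_ND replicates 3 and 9.

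The promoters of 8 of the 10 genes were matched in RefSeq (build GRCr8), as the 250 bases before each start, and searched on both strands for CAGAC, the core letters of the element that Smad proteins bind. Windows are shown for Tgfb1, with the largest change among the matched genes, and for Ltbp1 and Bmp4, which held the letters. Capitals mark CAGAC, or GTCTG where it lies on the other strand.
Tgfb1 (chr1:90324062-90324311, plus strand): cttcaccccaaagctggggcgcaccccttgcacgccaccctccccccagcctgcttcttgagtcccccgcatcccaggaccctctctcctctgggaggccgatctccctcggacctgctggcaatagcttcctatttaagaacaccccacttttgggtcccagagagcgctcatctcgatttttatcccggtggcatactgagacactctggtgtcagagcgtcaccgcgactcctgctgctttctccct
Ltbp1 (chr6:26177302-26177551, minus strand): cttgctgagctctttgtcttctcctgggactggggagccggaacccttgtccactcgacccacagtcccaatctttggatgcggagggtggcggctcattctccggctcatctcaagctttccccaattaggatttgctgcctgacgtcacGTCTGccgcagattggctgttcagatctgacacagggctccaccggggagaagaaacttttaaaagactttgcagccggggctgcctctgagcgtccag
Bmp4 (chr15:22101934-22102183, minus strand): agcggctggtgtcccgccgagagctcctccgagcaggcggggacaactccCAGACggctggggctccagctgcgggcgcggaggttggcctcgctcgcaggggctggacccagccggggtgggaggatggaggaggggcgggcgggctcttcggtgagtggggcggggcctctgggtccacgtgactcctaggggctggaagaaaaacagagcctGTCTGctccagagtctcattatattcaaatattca
CAGAC occurred 2 times in the Bmp4 window, 1 time in the Ltbp1 window and not in the windows of Tgfb1, Tgfb2, Tgfb3, Inhba, Inhbb or Acvr2b. Of 33469 rat promoter windows of this length, 42.9% hold it. Of the other letters searched, TGANTCA was in none of the 8 windows (6.34% of all windows) and TATAAA in that of Inhba alone (12.9% of all windows), so no match overlapped another. A match is a description of these letters and does not show binding.

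With the normal diet in both groups, DMD_ND against WT_ND compares mutant with wild-type muscle. Follistatin was 16.03-fold higher by mean FPKM, Tgfb1 5.93-fold, Inhbb 4.08-fold, Ltbp1 3.75-fold, Tgfb2 2.22-fold and Bmp4 2.17-fold, while myostatin was 4.95-fold and Acvr2b 2.19-fold lower. Tgfb3 did not pass the test, and Inhba was too low to be tested. Of the 9 members tested, 8 were called, 6 higher and 2 lower, with a median log2 fold change of 0.78, against -0.04 over all tested genes. Inhbb reached the minimum level for testing in mutant libraries alone, so it had to differ. With a minimum on the mean over all libraries (1 FPKM), which leaves out Inhbb and Acvr2b, 6 of 7 members were called, 5 higher and 1 lower. The mutation separated the libraries widely: 65.7% of all tested genes were called, 31.5% higher and 34.3% lower. The libraries of both groups did not overlap for 6 members, Inhbb among them, against 55.1% of all tested genes. In TPM the median gene of DMD_ND moved up by 0.86 on the log2 scale, 8564 genes were then called higher and 720 lower, and the members split into 7 higher and 1 lower.

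**Figure D1:**
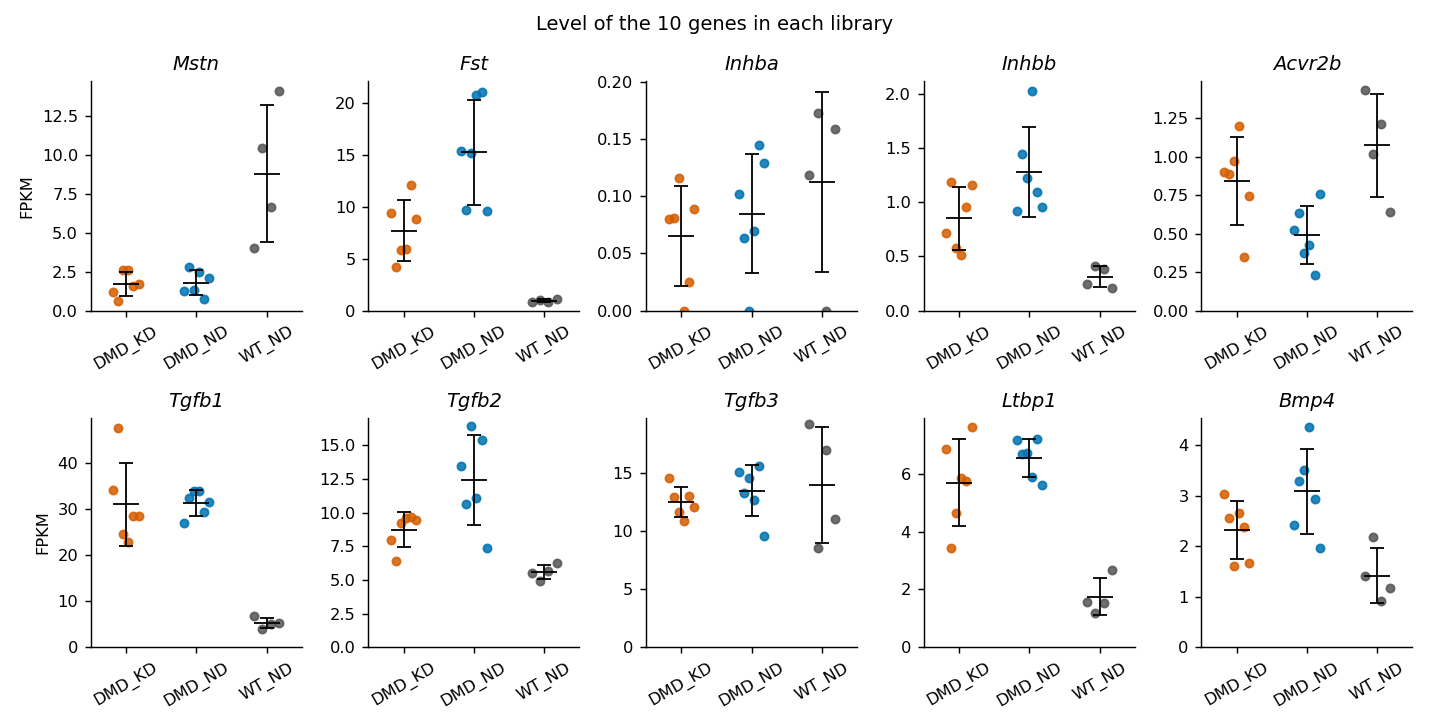
Level of each of the 10 genes (FPKM, linear axes that start at 0 and differ between panels) in every library of DMD_KD, DMD_ND and WT_ND; points are libraries, long bars group means and whiskers 1 SD. Fst, Inhbb, Tgfb1, Tgfb2 and Ltbp1 lie above every WT_ND library in every mutant library, and Mstn lies below.

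Myostatin (Mstn, ENSRNOG00000021294) lies on the minus strand of chromosome 9, 48452533 to 48458933, in the build mRatBN7.2, as the table gives it. Its lowest, median and highest levels were 0.645, 1.67 and 2.63 FPKM in DMD_KD and 0.746, 1.71 and 2.79 FPKM in DMD_ND, against 4.02, 10.4, 6.68 and 14.1 FPKM in the 4 WT_ND libraries. In FPKM every mutant library was below every WT_ND library, and both mutant groups covered nearly the same range. Mstn fell in DMD_ND (log2 fold change -1.75, SE 0.29, limma adjusted p = 5.33e-05) and in DMD_KD against WT_ND (-1.78, SE 0.29, limma adjusted p = 6.50e-05). These contrasts share the WT_ND libraries. The separation depends on the scaling: in TPM, WT_ND replicate 1 (4.04) lay below mutant libraries such as DMD_ND replicate 5 (6.58) and DMD_KD replicate 5 (5.59). The change in TPM was -1.11 in DMD_ND (limma adjusted p = 0.0240) and -1.32 in DMD_KD (limma adjusted p = 0.0118), where the median gene stood at 0.83 and 0.56. The wild-type level itself spanned 4.02 to 14.1 FPKM, a coefficient of variation of 49.9%. The 2 WT_ND libraries with less Mstn, replicates 1 and 4, held more summed fibre marker RNA (110698 and 108744 FPKM) than replicates 3 and 9 (62140 and 59426 FPKM).

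Because summed fibre markers also moved with genotype, the ratio of Mstn to them was added after the data were seen. On the log2 scale the ratio averaged -15.0 ± 1.24 (SD, n = 6) in DMD_KD, -14.4 ± 0.494 (n = 6) in DMD_ND and -13.3 ± 1.26 (n = 4) in WT_ND. The groups overlapped, and DMD_ND was 1.11 below WT_ND (exact permutation p = 0.124, adjusted p = 0.248 over 6 such tests). DMD_KD was 1.67 below WT_ND (exact permutation p = 0.0762, adjusted p = 0.248). Neither passed the test, and the estimates moved with the libraries: leaving out 1 library gave -1.58 (WT_ND replicate 1) to -0.68 (WT_ND replicate 9) in DMD_ND and -2.14 (WT_ND replicate 1) to -1.19 (DMD_KD replicate 3) in DMD_KD.

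Follistatin (Fst, ENSRNOG00000011631; minus strand of chromosome 2, 46123439 to 46130571) went the other way. Its lowest, median and highest levels were 4.17, 7.40 and 12.1 FPKM in DMD_KD and 9.61, 15.3 and 21.1 FPKM in DMD_ND, against 0.868, 1.02, 0.791 and 1.14 FPKM in the WT_ND libraries, where 21 to 42 reads stood behind each value. All mutant libraries lay above all WT_ND libraries, and the 2 mutant groups overlapped each other. Fst rose in DMD_ND (log2 fold change 3.0, SE 0.25, limma adjusted p = 2.33e-08) and in DMD_KD against WT_ND (2.09, SE 0.25, limma adjusted p = 2.24e-06). Among the 12119 tested genes its change in DMD_ND ranked 107 by size. Summed fibroblast markers, and those of satellite cells and myoblasts (85.9 to 142 FPKM in DMD_KD, 108 to 205 in DMD_ND and 39.5 to 56.2 in WT_ND), were also higher in the mutant groups, and their part in the change of Fst was not tested.

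Apart from the 0.1 FPKM added to each gene, the ratio of the ligand to its inhibitor within a library does not change with the scaling of the library. The log2 ratio of Mstn to Fst (FPKM + 0.1) averaged -2.14 ± 0.803 (SD, n = 6) in DMD_KD, -3.09 ± 1.04 (n = 6) in DMD_ND and 2.94 ± 0.617 (n = 4) in WT_ND. Fst exceeded Mstn in 6 of 6 DMD_KD and 6 of 6 DMD_ND libraries, and Mstn exceeded Fst in 4 of 4 WT_ND libraries. The difference from WT_ND was -6.03 in DMD_ND and -5.08 in DMD_KD, each with an exact two-sided permutation p = 0.00952, the smallest that 210 relabellings can give, and an adjusted p = 0.0214 over 18 ratio and share tests. Without WT_ND replicate 1, 3 or 9 the exact permutation adjusted p was 0.0536, from the smallest p that the fewer relabellings left can give. DMD_KD lay 0.95 above DMD_ND (exact permutation p = 0.115, adjusted p = 0.159), with overlapping libraries.

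**Figure D2:**
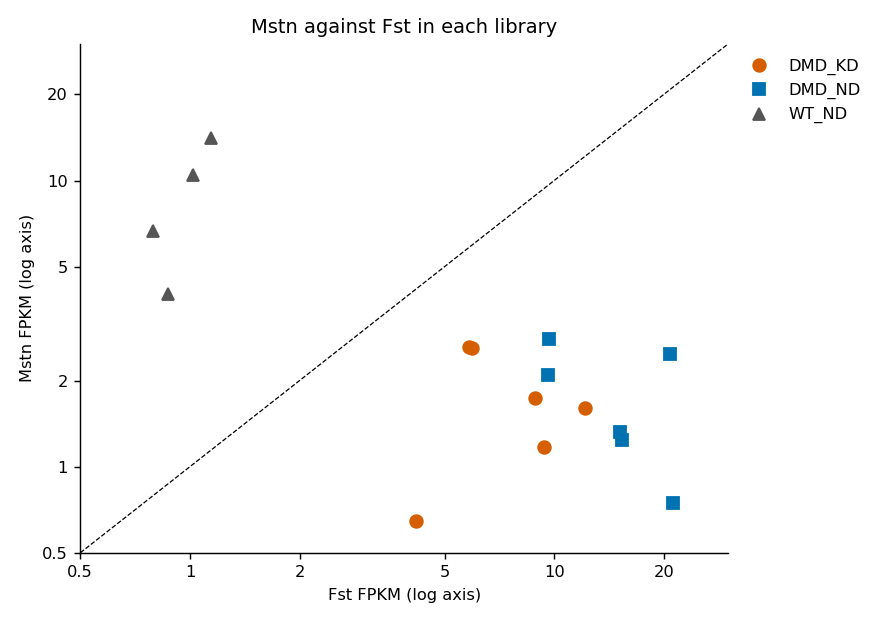
Mstn against Fst (FPKM, both axes logarithmic) in each library; circles are DMD_KD, squares DMD_ND and triangles WT_ND, and the dashed line marks equal levels. All mutant libraries lie below the line, with Fst between 4.17 and 21.1 FPKM, and all 4 WT_ND libraries above it, with Fst at 1.14 FPKM or less.

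The activins are dimers of the subunits that Inhba and Inhbb encode. Inhba (ENSRNOG00000014320; minus strand of chromosome 17, 49095920 to 49108982), the activin A subunit, was barely detected, with 0 to 4 reads per library in DMD_KD, 0 to 6 in DMD_ND and 0 to 5 in WT_ND. The summed reads were 14 in DMD_KD, 20 in DMD_ND and 11 in WT_ND. One library of each group had no read, which allows up to 0.0980 FPKM in DMD_KD replicate 7, 0.0696 in DMD_ND replicate 6 and 0.141 in WT_ND replicate 4 (3 reads, counting error only). A difference between groups was not detectable at this depth.

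Inhbb (ENSRNOG00000060237; minus strand of chromosome 13, 30530860 to 30537832), the activin B subunit, was the activin gene with measurable reads. It ranged from 0.516 to 1.19 FPKM around a median of 0.839 in DMD_KD and from 0.924 to 2.03 around 1.16 in DMD_ND, against 0.249, 0.413, 0.381 and 0.210 FPKM in WT_ND. Mutant and wild-type libraries did not overlap, although WT_ND values rest on 12 to 34 reads each. Inhbb rose in DMD_ND (log2 fold change 0.78, SE 0.14, limma adjusted p = 0.000107) and in DMD_KD against WT_ND (0.49, SE 0.14, limma adjusted p = 0.00674). Inhbb passed the filter on low values through 6 mutant libraries alone and so had to differ, which its p does not take into account. The planned log2 ratio of Inhba to Inhbb was lower in DMD_ND than in WT_ND by 1.88 (exact permutation p = 0.0190, adjusted p = 0.0381) and that of Inhba to Fst by 3.97 (exact permutation p = 0.00952, adjusted p = 0.0214). In DMD_KD the same ratios were lower than in WT_ND by 1.49 (exact permutation p = 0.0286, adjusted p = 0.0514, which did not pass) and 3.13 (exact permutation p = 0.00952, adjusted p = 0.0214). At 0 to 6 Inhba reads per library the numerator is mostly the added 0.1 FPKM, so these ratios largely restate the levels of Inhbb and Fst and show nothing of Inhba. Leaving out any 1 of 8 libraries ended the Inhba to Inhbb call in DMD_ND (highest exact permutation adjusted p = 0.0952).

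Acvr2b (ENSRNOG00000014477; plus strand of chromosome 8, 119138812 to 119170458) encodes a type 2 receptor for myostatin and the activins. Its levels ran from 0.345 to 1.196 FPKM (median 0.893) in DMD_KD and from 0.230 to 0.755 (median 0.474) in DMD_ND, against 1.43, 1.01, 1.21 and 0.642 FPKM in WT_ND. All 3 groups overlapped. Acvr2b fell in DMD_ND against WT_ND (log2 fold change -0.47, SE 0.14, limma adjusted p = 0.00773) and did not pass the test in DMD_KD against WT_ND (-0.17, SE 0.14, limma adjusted p = 0.311). The call in DMD_ND ended in TPM (-0.07, limma adjusted p = 0.765), where the median gene stood at 0.83. It also ended with weights per library (-0.30, limma adjusted p = 0.0886). Between 13 and 61 reads stood behind each value.

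Tgfb1 (ENSRNOG00000020652; plus strand of chromosome 1, 81196532 to 81212847) encodes the best studied TGF-beta isoform. Its lowest, median and highest levels were 22.9, 28.5 and 47.6 FPKM in DMD_KD and 27.0, 32.0 and 34.0 FPKM in DMD_ND, against 6.72, 4.004, 5.15 and 5.28 FPKM in WT_ND. No mutant library came near the wild-type range, and the DMD_ND libraries were the most alike of the groups, with a coefficient of variation of 8.75%. Tgfb1 rose in DMD_ND (log2 fold change 2.38, SE 0.17, limma adjusted p = 4.28e-09) and in DMD_KD against WT_ND (2.33, SE 0.17, limma adjusted p = 8.17e-09). The macrophage markers given above moved the same way. The log2 ratio of Tgfb1 to their sum, added after the data were seen, averaged -3.17 ± 0.296 (SD, n = 6) in DMD_KD, -3.24 ± 0.250 (n = 6) in DMD_ND and -2.62 ± 0.813 (n = 4) in WT_ND. DMD_ND was 0.62 below WT_ND on this ratio (exact permutation p = 0.0857, adjusted p = 0.248 over 6 such tests). One library had much weight in this value: without WT_ND replicate 1 the difference was -0.22, and without WT_ND replicate 4 it was -0.81.

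Tgfb2 (ENSRNOG00000002418; minus strand of chromosome 13, 98160087 to 98261405) ranged from 6.38 to 9.65 FPKM (median 9.35) in DMD_KD and from 7.41 to 16.5 (median 12.3) in DMD_ND, against 5.53, 4.92, 5.67 and 6.23 FPKM in WT_ND. The lowest mutant library, DMD_KD replicate 3, stood just above the highest wild-type one. Tgfb2 rose in DMD_ND (log2 fold change 0.99, SE 0.17, limma adjusted p = 7.44e-05) and in DMD_KD against WT_ND (0.55, SE 0.17, limma adjusted p = 0.0105).

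Tgfb3 (ENSRNOG00000009867; minus strand of chromosome 6, 105704236 to 105726564) ranged from 10.9 to 14.6 FPKM (median 12.5) in DMD_KD and from 9.58 to 15.6 (median 13.9) in DMD_ND, against 19.2, 8.53, 17.01 and 11.004 FPKM in WT_ND. The WT_ND range enclosed every mutant library. Its log2 fold change was 0.00 (95% interval -0.38 to 0.38, limma adjusted p = 0.992) in DMD_ND and -0.09 (interval -0.47 to 0.30, limma adjusted p = 0.706) in DMD_KD against WT_ND. This depends on the scaling: in TPM Tgfb3 was higher in DMD_ND by 0.98 (limma adjusted p = 0.000156) and in DMD_KD by 0.63 (limma adjusted p = 0.00742), where the median gene stood at 0.83 and 0.56.

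The share of each isoform within a library does not depend on scaling, and the leading isoform differed with genotype. Of the summed Tgfb1, Tgfb2 and Tgfb3 FPKM, Tgfb1 made up 58.5 ± 6.69% (SD, n = 6) in DMD_KD, 55.1 ± 6.49% (n = 6) in DMD_ND and 21.6 ± 2.22% (n = 4) in WT_ND. Tgfb3 made up 24.2 ± 2.44% in DMD_KD, 23.5 ± 2.71% in DMD_ND and 54.98 ± 7.06% in WT_ND. For both, mutant and wild-type libraries did not overlap, and each mutant group differed from WT_ND (exact two-sided permutation p = 0.00952, adjusted p = 0.0214). Leaving out WT_ND replicate 1, 3 or 9 gave an exact permutation adjusted p = 0.0536, again from the smallest p that the relabellings left can give. The Tgfb2 share was 17.3 ± 4.65% in DMD_KD, 21.4 ± 4.23% in DMD_ND and 23.5 ± 5.30% in WT_ND, with overlapping libraries and no difference past the test. Ordered by level, Tgfb1 was thus first of the 3 in every mutant library, and Tgfb3 first in every WT_ND library. No share differed between DMD_KD and DMD_ND past the test.

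**Figure D3:**
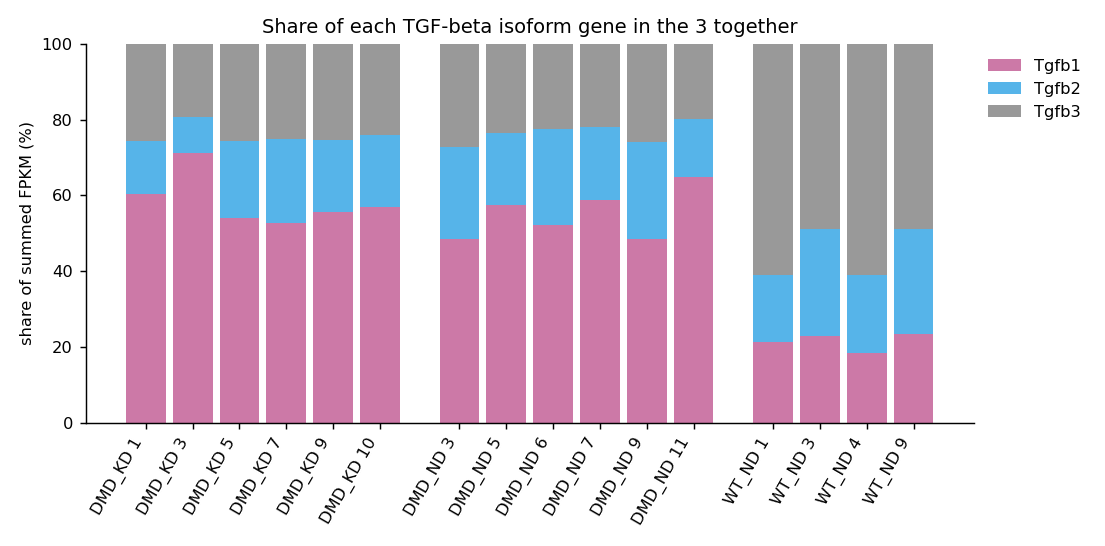
Share (%) of Tgfb1, Tgfb2 and Tgfb3 in their summed FPKM, as stacked bars that reach 100% for each library of DMD_KD, DMD_ND and WT_ND. Tgfb1 takes 48.5 to 71.1% of every mutant library and 18.5 to 23.4% of every WT_ND library.

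Ltbp1 (ENSRNOG00000033090; minus strand of chromosome 6, 20029629 to 20425349) encodes a protein that ties latent TGF-beta to the matrix. It ranged from 3.42 to 7.61 FPKM (median 5.81) in DMD_KD and from 5.61 to 7.21 (median 6.69) in DMD_ND, against 1.58, 1.18, 1.54 and 2.67 FPKM in WT_ND. Mutant and wild-type libraries did not overlap. Ltbp1 rose in DMD_ND (log2 fold change 1.48, SE 0.17, limma adjusted p = 8.47e-07) and in DMD_KD against WT_ND (1.28, SE 0.17, limma adjusted p = 6.58e-06).

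Bmp4 (ENSRNOG00000009694; minus strand of chromosome 15, 19618542 to 19623306), a ligand of the BMP branch that signals through other Smads than TGF-beta, ranged from 1.62 to 3.03 FPKM (median 2.48) in DMD_KD and from 1.97 to 4.37 (median 3.11) in DMD_ND, against 1.41, 2.18, 0.910 and 1.18 FPKM in WT_ND. One WT_ND library, replicate 3, reached into both mutant ranges. Bmp4 rose in DMD_ND (log2 fold change 0.76, SE 0.17, limma adjusted p = 0.00108). In DMD_KD against WT_ND it rose by 0.47 (SE 0.17, limma adjusted p = 0.0300), a call that ended when any 1 of 5 libraries was left out (DMD_KD replicates 1 and 7, WT_ND replicates 1, 4 and 9; highest limma adjusted p = 0.112).

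By level per length, the order within DMD_KD began with Tgfb1 (31.1 FPKM on average), Tgfb3 (12.5), Tgfb2 (8.72) and Fst (7.72), and Mstn came seventh of 10. In DMD_ND it began with Tgfb1 (31.3 FPKM), Fst (15.3), Tgfb3 (13.5) and Tgfb2 (12.4), and Mstn again came seventh. In WT_ND it began with Tgfb3 (13.9 FPKM), Mstn (8.81), Tgfb2 (5.59) and Tgfb1 (5.29), and Fst came eighth. Neighbours that lay within each other's SD included Fst, Tgfb3 and Tgfb2 in DMD_ND (15.3 ± 5.06, 13.5 ± 2.20 and 12.4 ± 3.37 FPKM) and Tgfb2 and Tgfb1 in WT_ND (5.59 ± 0.537 and 5.29 ± 1.11 FPKM). Tgfb1 stood clear of the next gene in both mutant groups.

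DMD_KD against DMD_ND compares the 2 diets in mutant muscle. No member was called in limma, and 1 of 12119 genes was (0.00825%). The largest difference was in Fst, with a mean of 7.72 ± 2.93 FPKM in DMD_KD and 15.3 ± 5.06 FPKM in DMD_ND (SD, n = 6 each). At an unadjusted p under 0.05 stood 4 of the 9 tested members, against 14.3% of all tested genes, and no other setting of the model called any member.

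Fst was lower by 0.91 on the log2 scale (95% interval -1.38 to -0.44, limma adjusted p = 0.140, exact permutation p = 0.0108 unadjusted). Of the DMD_KD libraries, 5 lay below the lowest DMD_ND library (9.61 FPKM), and replicate 9 (12.1 FPKM) lay above 2 of the DMD_ND libraries. Without DMD_KD replicate 3, the lowest, the difference was -0.77 (limma adjusted p = 0.218). Tgfb2 was lower by 0.44 (interval -0.76 to -0.12, limma adjusted p = 0.241), and 5 of 6 DMD_KD libraries lay between 7.996 and 9.65 FPKM, a range that holds none of the DMD_ND libraries, of which replicate 11 lay below it (7.41 FPKM).

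Inhbb was lower by 0.29 (interval -0.56 to -0.03, limma adjusted p = 0.305), and Acvr2b was the member with a positive estimate, 0.30 (interval 0.03 to 0.57, limma adjusted p = 0.307). Bmp4 gave -0.29 (interval -0.62 to 0.04), Ltbp1 -0.20 (-0.52 to 0.12), Tgfb3 -0.09 (-0.43 to 0.25), Tgfb1 -0.05 (-0.37 to 0.27) and Mstn -0.03 (-0.58 to 0.52). The estimates were negative for 8 of 9 members, against 51.1% of all tested genes, and no member's 2 groups of libraries were free of overlap (1.48% of all tested genes were). These intervals do not show that Mstn, Tgfb1 or Tgfb3 was the same on both diets.

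**Figure D4:**
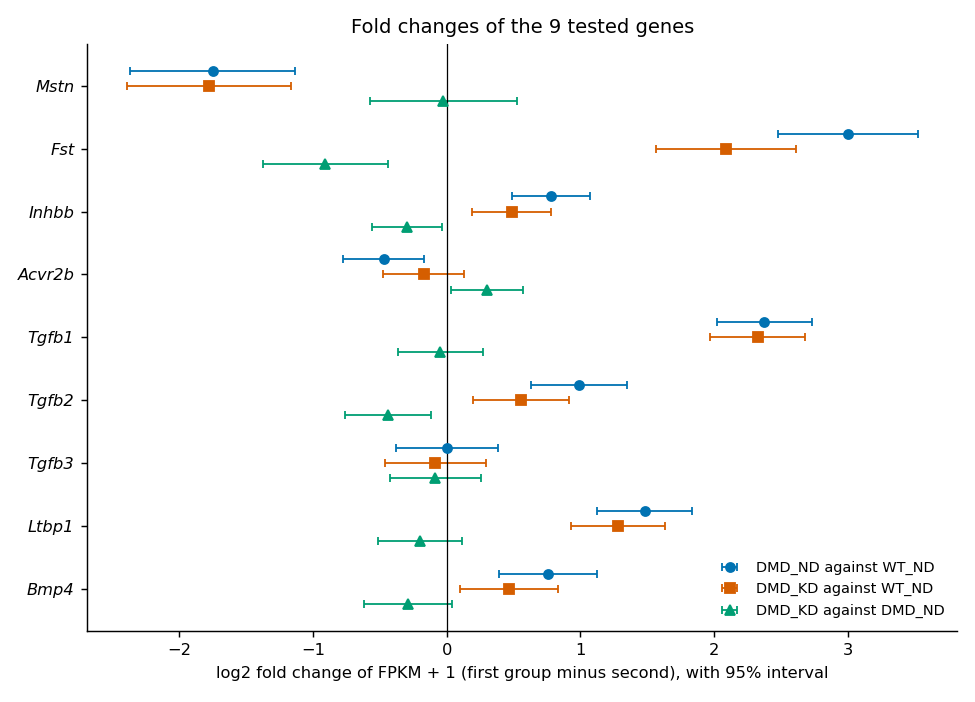
Log2 fold change of FPKM + 1 (horizontal axis) with its 95% interval for the 9 tested genes, as circles for DMD_ND against WT_ND, squares for DMD_KD against WT_ND and triangles for DMD_KD against DMD_ND. The first 2 contrasts share the WT_ND libraries; the triangles range from -0.91 for Fst to 0.30 for Acvr2b.

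DMD_KD against WT_ND, which sets mutants on MCTKD against wild types on the normal diet, called 7 of 9 tested members, 6 higher and 1 lower, against 58.3% of all tested genes (27.3% higher, 31.1% lower). With the minimum on the mean, which leaves out Inhbb and Acvr2b, 6 of 7 were called, 5 higher and 1 lower. Libraries did not overlap for 6 members, against 37.2% of all tested genes. Inhbb, counted there and among the 7 called, reached the minimum level in mutant libraries alone, so it had to differ. By mean FPKM, Fst was 8.09-fold, Tgfb1 5.88-fold, Ltbp1 3.27-fold, Inhbb 2.73-fold, Bmp4 1.64-fold and Tgfb2 1.56-fold higher, and Mstn 5.10-fold lower. Without DMD_KD replicate 3 the 7 members were again called. In TPM the split was 7 higher and 1 lower, beside 6930 of 12119 tested genes higher and 573 lower, and the median gene moved up by 0.62.

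Around the 10 genes, 7 lists of 81 entries cover the rest of the pathway; each is given for DMD_ND against WT_ND, and none had a member called in DMD_KD against DMD_ND. The lists were chosen with earlier results of these data known. Their counts stand beside 65.7% of all tested genes called (31.5% higher, 34.3% lower) and, in TPM, beside 8564 genes higher and 720 lower; a share near these says nothing particular of a list. List members that reached 1 FPKM in mutant libraries alone had to differ, and their levels are given without a test: they were 3 of 7 other ligands, 2 of 11 genes for latency and activation, 1 of 12 TGF-beta response genes, 1 of 7 BMP response genes and none of the receptors, Smads and inhibitors. Of the other ligands, 4 of 7 tested were higher and 1 lower (6 and 0 in TPM), with a median of 1.13. The 4 include the 3 that had to differ, so neither this count nor this median is a result about the ligands. Gdf11, the nearest relative of myostatin, averaged 7.62 ± 1.83 FPKM in DMD_ND and 0.715 ± 0.134 in WT_ND. Gdf10, a BMP-related ligand, averaged 6.55 ± 3.67 FPKM in DMD_ND and 0.457 ± 0.240 in WT_ND. Gdf5, of the same branch, averaged 1.35 ± 0.383 FPKM in DMD_ND and 0.061 ± 0.070 in WT_ND. These 3 are the ligands that reached 1 FPKM in mutant libraries alone.

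Receptors were split, with 3 of 10 tested higher and 4 lower (5 and 0 in TPM) around a median of -0.05. Tgfbr2, the type 2 receptor of TGF-beta, rose to 36.9 ± 2.004 FPKM in DMD_ND, against 11.04 ± 0.712 in WT_ND (1.66, limma adjusted p = 1.48e-08). Acvr1b, a type 1 receptor of activin and myostatin, fell by 1.09 (limma adjusted p = 2.63e-06) and Bmpr1a, a type 1 receptor of BMPs, by 0.89 (limma adjusted p = 7.88e-05). Both lost the call in TPM (-0.18 and -0.06, limma adjusted p = 0.406 and 0.836), where the median gene stood at 0.83.

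Of the Smads and their regulators, 3 of 11 tested were higher and 2 lower (10 and 1 in TPM), with a median of 0.04. Smad1, which carries BMP signals, rose by 0.97 (limma adjusted p = 4.87e-07). Smad3, which carries those of TGF-beta, activin and myostatin, fell to 11.9 ± 2.78 FPKM in DMD_ND, against 36.0 ± 11.8 in WT_ND (-1.49, limma adjusted p = 2.56e-05). The shared partner Smad4 was lower by 0.45 (limma adjusted p = 0.000592). In TPM it was higher (0.50, limma adjusted p = 0.0273), where the median gene stood at 0.83.

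Of the extracellular inhibitors, 5 of 10 tested were higher and 3 lower (7 and 2 in TPM), with a median of 0.74. Chrd (chordin), a BMP antagonist, rose to 10.01 ± 2.47 FPKM in DMD_ND, against 1.005 ± 0.398 in WT_ND (2.45, limma adjusted p = 3.88e-09). Fstl1, a secreted relative of follistatin, rose by 2.33 (limma adjusted p = 1.11e-08).

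Of the genes for latency and activation, 7 of 11 tested were higher and 1 lower (10 and 0 in TPM), with a median of 0.45. The 11 include the 2 that had to differ, which this count and median do not take into account. Bmp1, a protease that frees latent ligands, rose by 2.65 (limma adjusted p = 2.26e-08), and the fibrillin gene Fbn1 by 2.14 (limma adjusted p = 2.62e-08). Ltbp2, a relative of Ltbp1 that reached 1 FPKM in mutant libraries alone, averaged 1.37 ± 0.405 FPKM in DMD_ND and 0.041 ± 0.024 in WT_ND.

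All 12 TGF-beta response genes tested were higher, with a median of 3.23. The 12 include the 1 that reached 1 FPKM in mutant libraries alone and so had to differ. Col1a1, a collagen chain, averaged 335 ± 67.2 FPKM in DMD_ND and 16.2 ± 5.11 in WT_ND (4.32, limma adjusted p = 5.30e-11), and Col3a1 rose by 3.92 (limma adjusted p = 1.09e-10) and the fibronectin gene Fn1 by 3.20 (limma adjusted p = 3.73e-10). Col1a1 and Col3a1 are also on the fibroblast marker list, whose summed level moved the same way. Acta2, another of the 12, is on the smooth muscle and pericyte list, which had 4 of 5 markers called higher. The part of these marker lists in the changes was not tested. Of the BMP response genes, 5 of 7 tested were higher and 0 lower (7 and 0 in TPM), with a median of 0.83, led by Id2 (2.58, limma adjusted p = 1.00e-08) and Id3 (1.40, limma adjusted p = 1.09e-05). Msx1, which reached 1 FPKM in mutant libraries alone, averaged 2.99 ± 1.11 FPKM in DMD_ND and 0.725 ± 0.177 in WT_ND.

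**Figure D5:**
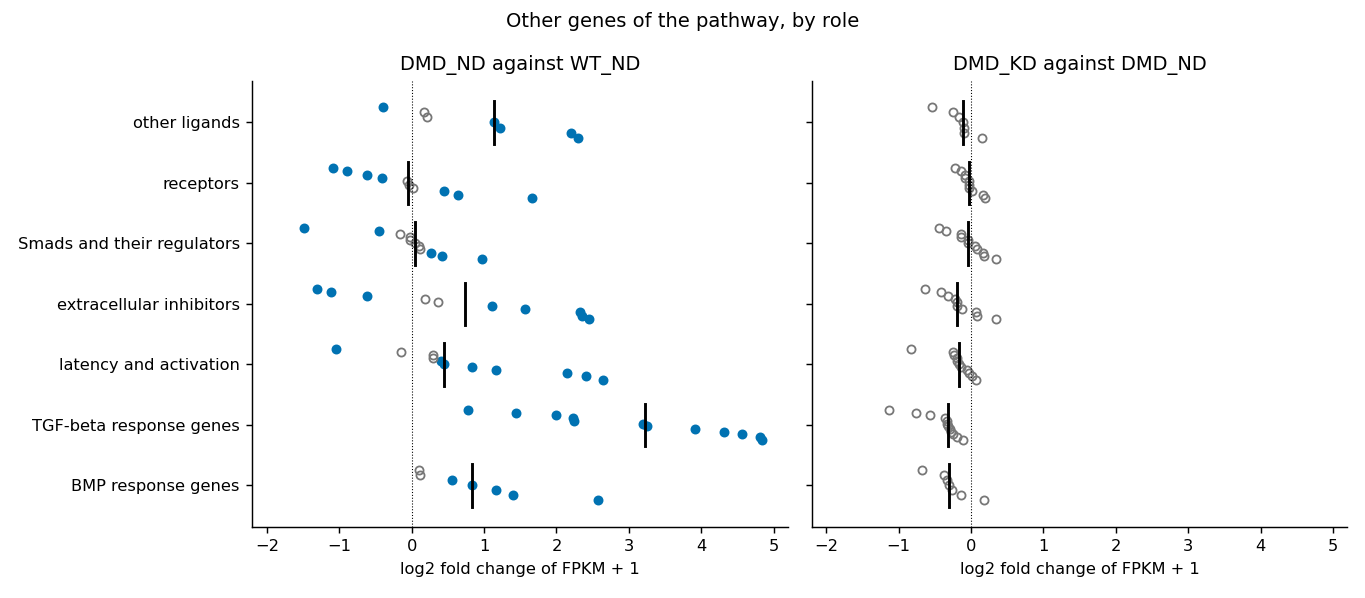
Log2 fold change of FPKM + 1 of each tested gene of the 7 pathway lists, in DMD_ND against WT_ND (left) and DMD_KD against DMD_ND (right); filled points passed the test, open points did not, and bars are list medians. In the left panel all 12 TGF-beta response genes are filled and above 0; in the right panel no point is filled.

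In DMD_KD against DMD_ND, all 12 TGF-beta response genes and 6 of 7 BMP response genes had negative estimates, with medians of -0.32 and -0.31, against -0.01 over all tested genes, and none passed the test. Id2 averaged 6.50 ± 2.19 FPKM in DMD_KD and 10.6 ± 1.45 in DMD_ND (-0.69, SE 0.18, limma adjusted p = 0.140). Summed macrophage markers had medians of 280.0 FPKM in DMD_KD and 297.8 in DMD_ND, and those of fibroblasts 1400.2 in DMD_KD and 1999.1 in DMD_ND. Fibre markers had positive estimates in 7 of 7 (median 0.39; summed medians 48165 FPKM in DMD_KD and 36711 in DMD_ND) and adipocyte markers negative ones in 5 of 5 (median -0.79; summed medians 142.8 FPKM in DMD_KD and 153.03 in DMD_ND), none past the test. The part of these markers in the differences between the diets was not tested.

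Genes whose centred log2 levels lay nearest to those of 3 members over the 16 libraries were sought among named genes averaging 5 FPKM or more, and the likeness is given as the root mean square difference. For Mstn (5846 candidates, median difference 0.85) these were Carnmt1 (0.27), Aldh6a1 (0.28) and Gpcpd1 (0.30). For Fst (5845 candidates, median 1.37) they were Id2 (0.29), Thbs2 (0.33) and Sfrp1 (0.34). For Tgfb1 (median 1.18) they were S100a11 (0.14), Vat1 (0.18) and Ckap4 (0.18), with means of 103.5 FPKM in DMD_KD, 107.4 in DMD_ND and 19.6 in WT_ND for S100a11.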

How the data were processed

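Messenger RNA of rat tibialis anterior was captured on poly-T beads and copied from random hexamers, per the labels' protocols, which do not say whether the libraries kept strand. Per the submitters' processing notes, the build was mRatBN7.2 and the tools featureCounts 1.5.0-p3 and HISAT2 2.0.5; annotation release and strand setting were not given in the sources used here. The authors deposited FPKM values for 31141 genes in 16 libraries. Multiplying by gene length recovered reads as whole numbers (100% of values within a tolerance of 0.05). The libraries' scale equalled the median-of-ratios size factor to within 9.59e-10%, so the deposited FPKM are already scaled between libraries. Inhbb and Tgfb2 overlap other genes of the table, all at 0 FPKM.

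One set of 3 group means was estimated on log2(FPKM + 1) with limma 3.58.1 (R 4.3.3, eBayes with trend and robust, 13 residual degrees of freedom) for the 12119 genes that reached 1 FPKM in 4 or more libraries. The test was tried on simulated data. Two-sided p-values were adjusted over these genes (Benjamini-Hochberg). Ratios and shares within a library were tested by exact permutation of the group labels (210 for 6 against 4 libraries, 924 for 6 against 6; SciPy 1.17.1 for the adjustment over 18 tests). Both definitions of the two-sided exact p were seen with their results before the stricter was kept: the p printed is 2 times the smaller tail, and the other is given with the alternatives. The genes named are the 10 members, up to 3 called genes of each of 7 pathway lists with the smallest p in DMD_ND against WT_ND, the 3 nearest patterns of Mstn, Fst and Tgfb1, and markers from 10 lists; a gene that this rule selects is not reported here. Members and lists were chosen with earlier results of these data known. Alternatives were other pseudocounts, filters and scalings, a replicate block, only the groups compared, library weights, another variance model and each library left out. Intervals and limits on 0 reads cover counting error or the spread between libraries only.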

Additional observations from a re-analysis of the deposited data

Results flagged for a closer look

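Of 48 groups checked (10 levels and 6 ratios or shares in 3 groups), 1 held a library far from the others, where chance gives about 1 in 20. In DMD_KD replicate 3, Tgfb3 made up 19.35% of the 3 TGF-beta isoforms, against 24.09 to 25.67% in the other 5 DMD_KD libraries. The gap to the nearest library was 0.75 of the group's range, where 0.625 is the limit for 6 libraries. The same library had the most Tgfb1 of its group (47.6 FPKM) and the least Mstn, Fst, Tgfb2 and Ltbp1. Without it the Tgfb3 share of DMD_KD differed from that of WT_ND by -29.8 percentage points (exact permutation adjusted p = 0.0357).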

How the results depend on the processing

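The calls of 8, 0 and 7 members (DMD_ND against WT_ND, DMD_KD against DMD_ND, DMD_KD against WT_ND) ranged over 6 to 8, 0 and 5 to 8 in the alternatives. With each library left out in turn they were 8, 0 and 6 to 7. Same-numbered libraries of different groups correlated at -0.66 to 0.41. The same-numbered library was the best match for replicate 9 in each comparison (0.06, 0.23 and 0.41) and for no other number. With the replicate block the members called were 8, 0 and 5, and 0 genes were called between diets. Inhbb (0.45, limma adjusted p = 0.111) and Bmp4 (0.41, limma adjusted p = 0.122) lost the call in DMD_KD against WT_ND. In DMD_KD against DMD_ND Mstn, at -0.03, turned to 0.16 with the block and 0.12 with library weights. In DMD_KD against WT_ND Tgfb3, at -0.09, turned to 0.16 with the block, 0.15 with weights and 0.63 in TPM, and Acvr2b, at -0.17, to 0.23 in TPM. In TPM the median gene of this comparison stood at 0.56. Weights also ended the Bmp4 call there (limma adjusted p = 0.0548), as did no filter (limma adjusted p = 0.0504). Genes called between diets numbered 1, but 2 with only both groups fitted, 93 (51 higher, 42 lower) with weights, and 1 to 7 with a library left out (7 without DMD_KD replicate 9). In TPM 11 Smads and regulators were called in DMD_ND against WT_ND, against 5, and 7 BMP response genes in DMD_KD against WT_ND, against 4. The causes were not tested.

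With 1 FPKM added in place of 0.1, the ratio of Inhba to Fst passed between diets (0.88, exact permutation adjusted p = 0.0213) and that of Inhba to Inhbb in DMD_KD against WT_ND (-0.55, exact permutation adjusted p = 0.0171). The numerator is then nearly constant, so these ratios restate the levels of Fst and Inhbb. Fst itself was not called between diets (-0.91, limma adjusted p = 0.140). With the two-sided p taken as the share of absolute differences, the ratio of Inhba to Inhbb in DMD_KD against WT_ND (-1.49, with 0.1 FPKM added) also passed (exact permutation adjusted p = 0.0343). With a library left out, the differences ranged as follows. For Mstn to Fst they were -6.31 to -5.72 in DMD_ND and -5.37 to -4.89 in DMD_KD against WT_ND. For Inhba to Fst they were -4.22 to -3.79 and -3.38 to -2.91, for Inhba to Inhbb -2.29 to -1.62 and -1.90 to -1.23, for the Tgfb1 share 31.6 to 34.9 and 34.4 to 38.1 percentage points, and for the Tgfb3 share -33.6 to -29.5 and -32.8 to -28.7. For Inhba to Inhbb the call in DMD_ND ended without any 1 of 8 libraries (highest exact permutation adjusted p = 0.0952). The other calls ended without WT_ND replicate 1, 3 or 9 (exact permutation adjusted p = 0.0536). With a WT_ND library left out fewer relabellings remain, and the p stood at the smallest that they can give. Mutant and WT_ND libraries still did not overlap there, so the lost calls do not show a dependence on those libraries. Among values with no call, the lowest and highest with a library left out were -0.15 and 0.11 for Mstn and -0.18 and 0.027 for Tgfb1 in DMD_KD against DMD_ND, -0.28 and 0.082 for Tgfb3 in DMD_KD against WT_ND, -0.19 and 0.17 for Tgfb3 in DMD_ND against WT_ND, -0.28 and -0.088 for Ltbp1 and -0.17 and -0.044 for Tgfb3 in DMD_KD against DMD_ND, -0.28 and -0.086 for Acvr2b in DMD_KD against WT_ND, and -0.039 and 0.15 for Tgfb1 to macrophage markers in DMD_KD against DMD_ND. Depth limits Inhba, Inhbb and Acvr2b most.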
